A study of Rattus norvegicus with 6 samples.

Results

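Aminoacyl-tRNA synthetases are the enzymes that join each amino acid to its transfer RNA, and their transcripts were followed here in the kidneys of rats on a normal or an amino acid-rich diet. The members were chosen by gene symbol: 36 genes, of which 20 encode the cytosolic enzymes and 16, with a symbol ending in 2, the mitochondrial ones. The tables listed 34 of the 36, among 17051 genes in all. Iars2 and Mars2 had no entry, so their levels were not analysed here. All 34 listed members passed the minimum of 30 estimated counts in at least 1 rat, which 11553 genes passed, so every listed member was tested.

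Kidney tissue was taken from naive male Sprague Dawley rats that had undergone surgery under isoflurane in both groups, and poly(A)-selected RNA was sequenced from each rat as a library of its own. The AL group (rats 61, 71 and 88) ate standard powdered chow ad libitum. The HD group (rats 64, 67 and 69) ate the hyperammonemic diet, the same chow with a mixture of amino acids modelled on hemoglobin, for a week. Each group held 3 rats, whose age is not given in the sources used here, and neither the labels nor the methods say which zone of the kidney was sampled.

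Each synthetase recognizes its amino acid, activates it with ATP and transfers it to the matching tRNA, and many proofread the product so that ribosomes receive correctly charged tRNA. Cytosolic and mitochondrial protein synthesis draw on separate sets of enzymes, all encoded in the nucleus, although Gars and Kars each give rise to both forms. Several cytosolic synthetases are held with the scaffold proteins Aimp1, Aimp2 and Eef1e1 in the multisynthetase complex. Many cytosolic synthetase genes are known targets of Atf4, the transcription factor that cells produce when amino acids are scarce or when the integrated stress response is active. The study addressed how the kidney handles ammonia under this diet, and the comparison made here was that of the synthetase transcripts between the diets.

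Atf4 binds a composite C/EBP-ATF element, searched here as TGATGNAA on both strands in RefSeq promoters (rat build GRCr8, 250 bases before to 50 after the gene start). A promoter was matched for 17 cytosolic and 15 mitochondrial members through their transcript accessions or symbols. Iars2, which had no measured level, was among the 15, while Mars2 matched 3 promoters and was left out. The letters were found in 7 of the 17 cytosolic promoters (41.2%) and in 0 of the 15 mitochondrial ones, and in 3.98% of all 33469 promoters. The other 10 cytosolic promoters also lacked the letters, and at 3.98% few or no matches would be expected in 15 promoters. The 7 matches that began within 50 bases of the gene start are shown, 1 for each of the 7 promoters with the letters. They are shown because only cytosolic promoters among the members held the letters. Each is given in 30 bases on the strand where it reads TGATGNAA, with the matching letters in capitals.
Aars (chr19:55908480-55908509, minus strand, from position 10): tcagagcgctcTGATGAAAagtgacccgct
Cars (chr1:208225334-208225363, plus strand, from position 18): tttccagaatcTGATGCAAccgcggcgccg
Iars (chr17:15193658-15193687, plus strand, from position -24): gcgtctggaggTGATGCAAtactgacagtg
Mars (chr7:65023752-65023781, plus strand, from position -17): ggagcccacgcTGATGCAAccggaacgggc
Nars (chr18:60275778-60275807, minus strand, from position -14): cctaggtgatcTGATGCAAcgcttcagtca
Tars (chr2:62114811-62114840, plus strand, from position -27): agctaaccagcTGATGCAAcgggacgccag
Yars (chr5:146820183-146820212, plus strand, from position 39): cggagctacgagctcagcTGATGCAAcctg
Positions are counted along the gene from its start. Aars held a further match, TGATGCAA from position -112, which is not shown because it lies beyond 50 bases. A match is a description of letters and not of binding, and promoters of Dars, Gars and Rars were not matched.

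A different motif was present in promoters of both sets. CCGGAAG, the core bound by ETS factors, was present in 9 of the 17 cytosolic and 6 of the 15 mitochondrial promoters, against 8.75% of all promoters. It lay at 2 places between Hars and Hars2, which encode the cytosolic and the mitochondrial histidyl-tRNA synthetase and are transcribed away from each other on chromosome 18. Only 143 bases separate their starts in RefSeq, and they are shown because a single stretch of DNA serves both a cytosolic and a mitochondrial member. The same 2 places were therefore counted in both sets, for Hars and for Hars2. On the plus strand, from the Hars side to the Hars2 side, with the CCGGAAG matches in capitals (read as CTTCCGG on this strand), the stretch chr18:28672713-28672855 of GRCr8 reads as follows.
Hars to Hars2: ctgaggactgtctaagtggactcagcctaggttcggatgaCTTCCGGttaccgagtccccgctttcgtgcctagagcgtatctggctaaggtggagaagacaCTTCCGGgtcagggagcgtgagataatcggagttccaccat

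Estimated counts summed to between 12499945 and 30466461 per rat, and the 34 members held between 23259 and 62020 of them. The lowest count of any member in any rat was 77, for Ears2 in rat 64, so none passed the filter through 1 group alone. Markers of nephron segments were present, among them Umod and Aqp1, while the adrenal markers Cyp11b1 and Star had fewer than 30 counts in every rat. The summed TPM (RSEM's transcript share, a level corrected for transcript length and depth) of 5 podocyte markers was 19.1 to 49.8 in the AL group and 91.8 to 213 in the HD group, and that of 2 distal tubule markers 39.6 to 123 and 138 to 462. Over 8 leukocyte markers it was 368 to 984 in the AL group and 199 to 473 in the HD group. Over 7 proximal tubule markers it was 3720 to 4180 and 4600 to 5410. Aqp1 and Slc34a1 were the highest of these, and in normalized counts the groups overlapped in Cubn, Lrp2 and Slc5a2. Over 2 thick ascending limb markers it was 3010 to 3550 and 2040 to 3520, and over 3 collecting duct markers 1010 to 1380 and 922 to 1110. In normalized counts, Slc12a1 and Slc4a1 of these were lower in every HD rat than in every AL rat. Over 3 endothelial markers it was 30.4 to 81.8 and 20.7 to 75.5. In bulk tissue, fewer cells of a type and less RNA per cell cannot be told apart, and the part of these shifts in the results on the synthetases was not tested.

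In TPM, the cytosolic members were the more abundant set. Mean levels over the 6 rats ranged from 12.8 to 99.3 TPM in the 20 cytosolic members, with a median of 42.9, and from 6.84 to 41.2 in the 14 mitochondrial members, with a median of 13.7. The median of all tested genes was 16.6 TPM. Sars, which charges tRNA with serine, was the most abundant with 99.3 ± 10.5 TPM (SD, *n* = 6), followed by Qars for glutamine with 85.4 ± 6.91 and Aars for alanine with 85.2 ± 14.8. The ranges of these 3 over the rats overlapped, with 85.8 to 109, 78.1 to 93.7 and 67.3 to 110 TPM. Cars, for cysteine, was the least abundant cytosolic member with 12.8 ± 1.20 TPM (SD, *n* = 6). In the mitochondrial set, Tars2 for threonine led with 41.2 ± 3.86 TPM and Ears2 for glutamate came last with 6.84 ± 0.557 (SD, *n* = 6 each).

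**Figure D1:**
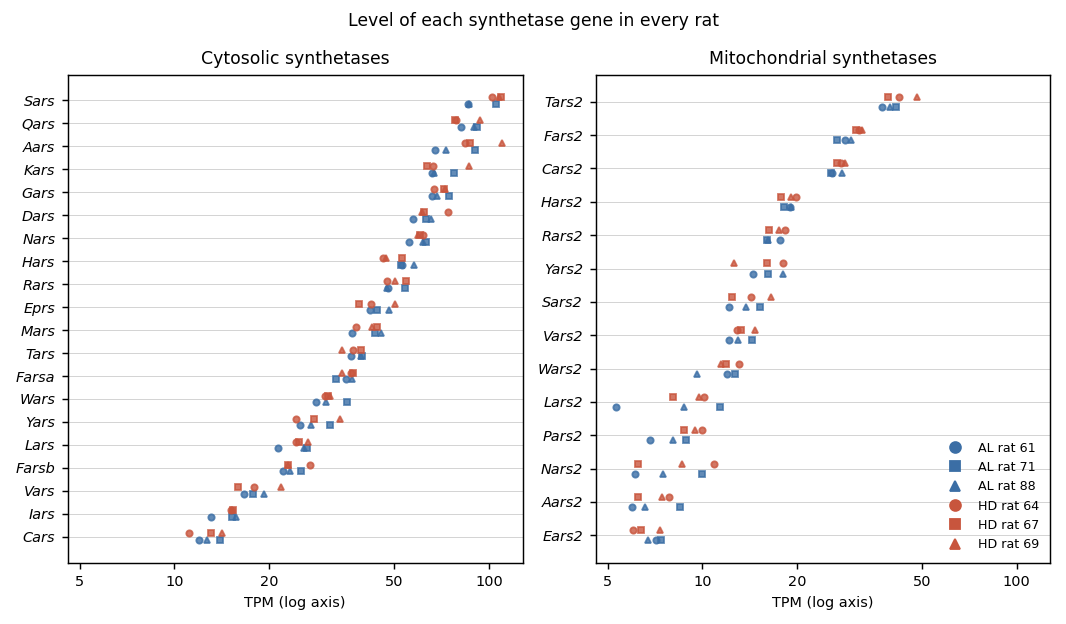
TPM of each of the 34 listed synthetase genes in each of the 6 rats on a log axis, ordered by mean, with cytosolic members on the left and mitochondrial members on the right (blue AL, red HD). The levels run from 6.84 TPM for Ears2 to 99.3 TPM for Sars on average, and the points of the groups overlap in every gene but Fars2, where all HD rats are higher.

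The summed level of the cytosolic members was 869, 997 and 941 TPM in rats 61, 71 and 88 of the AL group and 930, 949 and 1010 TPM in rats 64, 67 and 69 of the HD group. That of the mitochondrial members was 211, 233 and 224 TPM in the AL group and 242, 220 and 243 TPM in the HD group. Both sums overlapped between the groups. The cytosolic sum exceeded the mitochondrial sum 4.13-, 4.28- and 4.19-fold in the AL group and 3.84-, 4.32- and 4.17-fold in the HD group. The sums cover 20 cytosolic and 14 mitochondrial members, without Iars2 and Mars2. Gars (70.1 TPM) and Kars (71.2 TPM), which give rise to both forms, are counted as cytosolic only.

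For 11 amino acids, a single cytosolic and a single mitochondrial enzyme were measured, so the ratio of their levels could be taken within each rat. The cytosolic transcript was the higher in every rat for 9 of the 11. The ratio was largest for alanine, where Aars exceeded Aars2 by 12.1-fold on average (range over the 6 rats 10.7 to 14.8), followed by asparagine with 7.66 (5.69 to 9.69) and serine with 7.11 (6.26 to 8.79). Cysteine was the exception at the other end, since Cars was at 0.476 of Cars2 on average (0.402 to 0.545) and below it in every rat. For threonine, Tars and Tars2 were near parity with a ratio of 0.919 (0.705 to 1.01). Ears2 and Pars2 were not paired, because their cytosolic counterpart Eprs carries the activities for glutamate and proline on a single polypeptide.

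**Figure D2:**
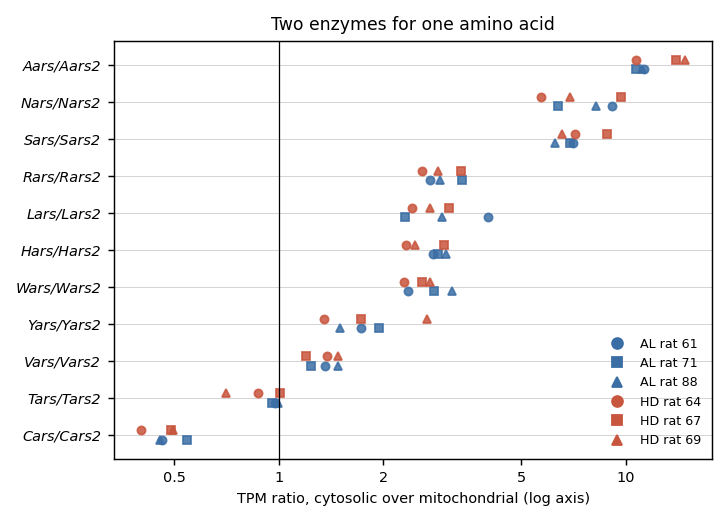
Ratio of the TPM of the cytosolic to that of the mitochondrial synthetase of the same amino acid in each rat, on a log axis, with the line at a ratio of 1 (blue AL, red HD). The mean ratios run from 0.476 for Cars/Cars2 to 12.1 for Aars/Aars2, and rats of both diets lie among each other in most pairs.

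Within the cytosol, the 8 enzymes of the multisynthetase complex (Dars, Eprs, Iars, Kars, Lars, Mars, Qars and Rars) ranged from 14.9 TPM for Iars to 85.4 TPM for Qars, although they share a complex. The 3 scaffold genes had closer levels, with 75.6 TPM for Aimp1, 82.0 for Aimp2 and 67.8 for Eef1e1. Farsa and Farsb encode the 2 subunits of the phenylalanine enzyme. Farsa was the higher in every rat, by 1.48-fold on average (1.29 to 1.62).

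The diet comparison was made on counts normalized by edgeR's TMM method (CPM, counts scaled to a common library size) with the quasi-likelihood test and Benjamini-Hochberg adjustment over all 11553 genes. No member passed an adjusted *P* of 0.05, where the share over all tested genes was 0.0%, and adjusted *P* values of the members ranged from 0.406 to 0.996. DESeq2 called 0 members at the same threshold, against 1.58% of all tested genes. At an unadjusted *P* value below 0.05, edgeR gave 3 members, Aars, Sars and Pars2, all higher in the HD group. This is 8.82% of the 34 members, beside 10.6% of all tested genes in either direction and 4.66% in the direction of higher in HD. The number fell to 0 without rat 88 of the AL group, beside 5.26% of all tested genes. It was 1, Aars, without rat 64 or without rat 67 of the HD group, beside 5.53% and 8.31%. The count was also 0 with library size alone, beside 10.1% of all tested genes, and 0 with limma on TPM, beside 8.78%. For DESeq2 the unadjusted count was 2, Aars and Sars, beside 11.5% of all tested genes.

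The members' fold changes were small and mostly above 0. The fitted log2 fold change (HD over AL) was above 0 in 32 of the 34 members, with a median of 0.11 and a range from -0.09 in Hars to 0.35 in Aars, while it was above 0 in 51.3% of all tested genes, whose median was 0.00673. In 31 of the 34 it was smaller than 0.25 in size, as it was in 7431 of all 11553 tested genes. With library size alone, 24 were above 0 and 10 below with a median of 0.0342, beside 36.5% of all tested genes above 0. On the TPM scale 25 were above 0 and 9 below with a median of 0.039, beside 38.4% of all tested genes above 0. Those scalings moved the median of all genes to -0.074 and -0.0612. In both, 29 of the 34 members were above the median of all genes, beside 31 in the main fit. The spread between rats of the same group, as the SD of log2 CPM, had a median of 0.123 over the members and of 0.218 over all tested genes, which include many of lower level.

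**Figure D3:**
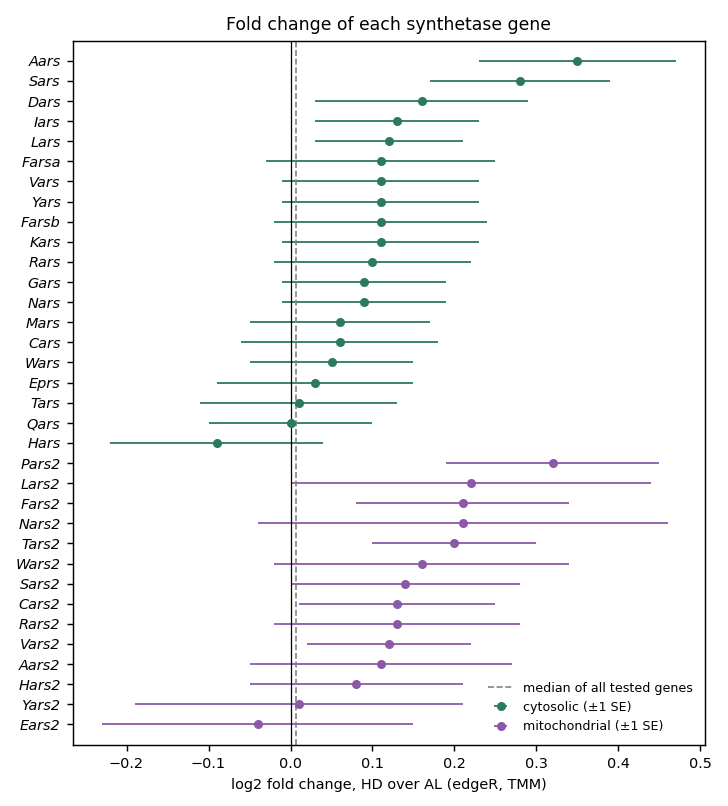
Fitted log2 fold change (HD over AL, edgeR with TMM) of each of the 34 members, with bars of 1 standard error, cytosolic members above and mitochondrial members below. The values run from -0.09 for Hars to 0.35 for Aars, and the dashed line marks the median of all tested genes (0.00673).

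Of the cytosolic members, Aars and Sars had the largest fold changes. Aars, the alanine enzyme, lies on chromosome 19 of rn5 from 54018027 to 54040573 with 21 exons. It was at 158, 177 and 153 CPM in rats 61, 71 and 88 of the AL group and at 191, 202 and 230 CPM in rats 64, 67 and 69 of the HD group. Every HD rat was above every AL rat (*P* = 0.1 by an exact two-sided permutation test, the lowest that 3 against 3 rats allow). The fitted difference was 0.35 on the log2 scale (standard error, SE, 0.12, adjusted *P* = 0.406 by edgeR, 0.209 by DESeq2) and lay between 0.28 and 0.42 with each rat left out in turn. In TPM the groups overlapped, since rat 71 had 90.5 TPM and rats 64 and 67 had 83.8 and 86.8.

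Sars lies on chromosome 2 from 230689714 to 230705606 with 11 exons. Its values were 110, 112 and 98.9 CPM in the AL group and 127, 138 and 123 CPM in the HD group, without overlap (*P* = 0.1 by an exact two-sided permutation test). The fitted difference was 0.28 on the log2 scale (SE 0.11, edgeR adjusted *P* = 0.432) and between 0.23 and 0.31 with each rat left out.

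Of the enzymes of the complex, Lars, for leucine, was at 56.9, 58.6 and 61.5 CPM in the AL group and 63.4, 65.8 and 63.3 CPM in the HD group. The groups did not overlap, but the difference of 0.12 on the log2 scale (SE 0.09, edgeR adjusted *P* = 0.719) was small, and it was 0.04 with library size alone and 0.05 in TPM. Dars, for aspartate, had 59.2, 53.9 and 60.0 CPM in the AL group and 74.4, 63.4 and 56.3 CPM in the HD group, so that rat 69 lay among the AL rats. Human hemoglobin is known for its lack of isoleucine, and the make-up of the mixture was not analysed here. Iars, the isoleucine enzyme, was at 41.2, 39.9 and 44.0 CPM in the AL group and 46.3, 48.0 and 42.7 CPM in the HD group, where rat 69 was below rat 88. Kars, for lysine, was at 97.8, 95.8 and 88.3 CPM in the AL group and 96.0, 93.1 and 114 CPM in the HD group, with only rat 69 above the AL rats. Over the 8 enzymes of the complex the log2 fold changes ran from 0.00 in Qars to 0.16 in Dars with a median of 0.10. Of the 8, 0 had an unadjusted *P* value below 0.05, beside 10.6% of all tested genes in edgeR and 11.5% in DESeq2. The 12 other cytosolic members also had a median of 0.10.

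Among those outside the complex, Gars, for glycine, was at 112, 106 and 104 CPM in the AL group and 111, 121 and 110 CPM in the HD group. The fitted difference was 0.09 on the log2 scale (SE 0.10, edgeR adjusted *P* = 0.822), and it was 0.00895 with library size alone, 0.02 in TPM and 0.04 without rat 67. Vars, for valine, had 46.4, 41.3 and 47.9 CPM in the AL group and 48.5, 44.0 and 54.2 CPM in the HD group. Yars, for tyrosine, had 42.6, 44.1 and 40.8 CPM in the AL group and 40.0, 46.4 and 50.9 CPM in the HD group. In each of these 3 genes the groups overlapped. Cars was at 24.8, 24.2 and 23.5 CPM in the AL group and 22.3, 26.8 and 26.2 CPM in the HD group, with the lowest and the highest rat both in the HD group. The other 9 cytosolic members (Eprs, Farsa, Farsb, Hars, Mars, Nars, Qars, Rars and Tars) had log2 fold changes between -0.09 and 0.11, overlapping groups and unadjusted *P* values of 0.411 or more.

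Wars, the tryptophan enzyme, is known to be induced by interferon gamma. It was at 56.5, 59.1 and 54.3 CPM in the AL group and 58.6, 61.1 and 55.7 CPM in the HD group, with a log2 fold change of 0.05 (SE 0.10, edgeR adjusted *P* = 0.922) that was -0.04 with library size alone and -0.02 on the TPM scale. The 14 tested genes of an interferon gamma list stood lower in the HD group in 13 cases, with a median log2 fold change of -0.57. None passed the adjusted threshold in edgeR, and 6 had an unadjusted one below 0.05, all lower, beside 5.94% of all tested genes. DESeq2 called 2 of them as lower, beside 0.77% of all tested genes. They were Gbp2 and Cxcl10, named after their values were seen. The summed leukocyte markers given above were also lower in the HD rats on the whole, with overlap. Cd74, the highest of these markers (280 TPM), is on the interferon gamma list as well. DESeq2 called 2 of the 7 tested leukocyte markers as lower, beside 0.77% of all tested genes. The part of leukocytes in the lower interferon gamma list was not tested. Gbp2 was at 24.9, 22.3 and 21.4 CPM in the AL group and 5.69, 14.4 and 11.0 CPM in the HD group.

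Of the mitochondrial members, Pars2, the proline enzyme, had the largest fold change. It lies on chromosome 5 from 130099179 to 130104241 with 2 exons. Its values were 15.7, 17.0 and 16.5 CPM in the AL group and 22.4, 19.9 and 19.4 CPM in the HD group, without overlap (*P* = 0.1 by an exact two-sided permutation test). The fitted difference was 0.32 on the log2 scale (SE 0.13, edgeR adjusted *P* = 0.455, DESeq2 adjusted *P* = 0.5), and it lay between 0.26 and 0.37 with each rat left out.

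Tars2, the most abundant of the set, was at 61.3, 56.8 and 57.9 CPM in the AL group and 67.6, 63.5 and 70.9 CPM in the HD group, which is 0.20 on the log2 scale (SE 0.10, edgeR adjusted *P* = 0.534). Fars2, for phenylalanine, was at 34.5, 27.0 and 32.1 CPM in the AL group and 36.9, 36.8 and 34.8 CPM in the HD group, which is 0.21 on the log2 scale (SE 0.13, edgeR adjusted *P* = 0.615). That value was 0.12 without rat 71 and 0.29 without rat 61. Vars2, for valine, was at 35.1, 34.5 and 33.3 CPM in the AL group and 36.1, 37.8 and 37.7 CPM in the HD group, which is 0.12 on the log2 scale (SE 0.10, edgeR adjusted *P* = 0.743). With library size alone, Tars2 was at 0.12, Fars2 at 0.14 and Vars2 at 0.04 on the log2 scale. In these 3 genes the groups were also separate in TMM-scaled CPM (*P* = 0.1 by an exact two-sided permutation test in each).

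Cars2, for cysteine, was at 32.2, 26.6 and 30.8 CPM in the AL group and 33.4, 32.9 and 31.7 CPM in the HD group, where rat 61 lay above rat 69. Sars2, for serine, was at 15.6, 16.2 and 15.8 CPM in the AL group and 17.8, 15.7 and 18.9 CPM in the HD group, where rat 67 was below rats 71 and 88. Ears2 was at 7.94, 6.87 and 6.68 CPM in the AL group and 6.54, 7.05 and 7.32 CPM in the HD group, and its log2 fold change of -0.04 (SE 0.19) turned to 0.04 without rat 61 and to 0.00496 without rat 64. The other 7 (Aars2, Hars2, Lars2, Nars2, Rars2, Wars2 and Yars2) had log2 fold changes between 0.01 and 0.22, overlapping groups and unadjusted *P* values of 0.354 or more.

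Every HD rat was thus above every AL rat in 7 of the 34 members (Aars, Fars2, Lars, Pars2, Sars, Tars2 and Vars2) and below in 0, beside 7.25% and 7.01% of all tested genes. The number depended on the scaling. With library size alone it was 2, Fars2 and Pars2, beside 4.09% of all tested genes, and in TPM it was 1, Fars2, beside 4.25%.

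**Figure D4:**
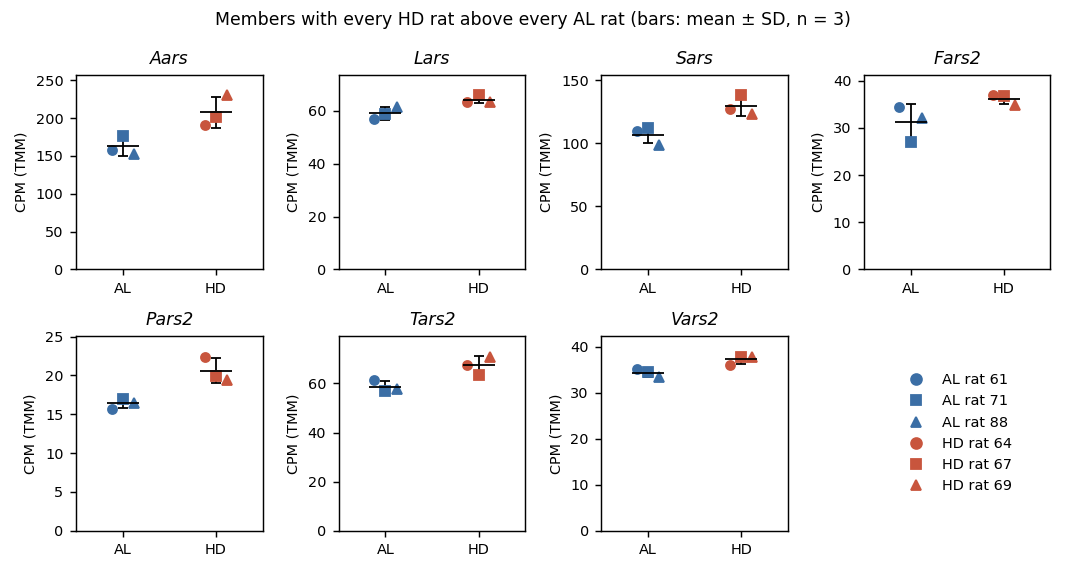
Normalized CPM in each rat for the 7 members in which every HD rat was above every AL rat, with the axis starting at 0, and the mean and SD over 3 rats in each group. The fold changes are largest in Aars (163 against 208 CPM on average) and Pars2 (16.4 against 20.6 CPM), and in Lars and Vars2 the separate groups lie close together.

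The cytosolic and the mitochondrial members were also set against each other. The median log2 fold change was 0.10 in the cytosolic set, with 19 of 20 above 0, and 0.13 in the mitochondrial set, with 13 of 14 above 0, and the difference of the medians was -0.03. Without rat 67 it was -0.085, and without rat 64 it was 0.011. The median deviation of the cytosolic members from their mean over the 6 rats, in log2 CPM, was -0.002, -0.07 and -0.027 in the AL group and 0.035, 0.111 and -0.014 in the HD group, with rat 69 below rat 61. For the mitochondrial members it was -0.016, -0.08 and -0.086 in the AL group and 0.159, 0.023 and 0.046 in the HD group, all 3 above the AL rats. The cytosolic minus the mitochondrial deviation was 0.014, 0.01 and 0.059 in the AL group and -0.124, 0.088 and -0.06 in the HD group. The HD rats thus lay on both sides of the AL rats. The pair Hars and Hars2, whose shared stretch is shown above, had log2 fold changes of -0.09 and 0.08, each smaller than its SE of 0.13.

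**Figure D5:**
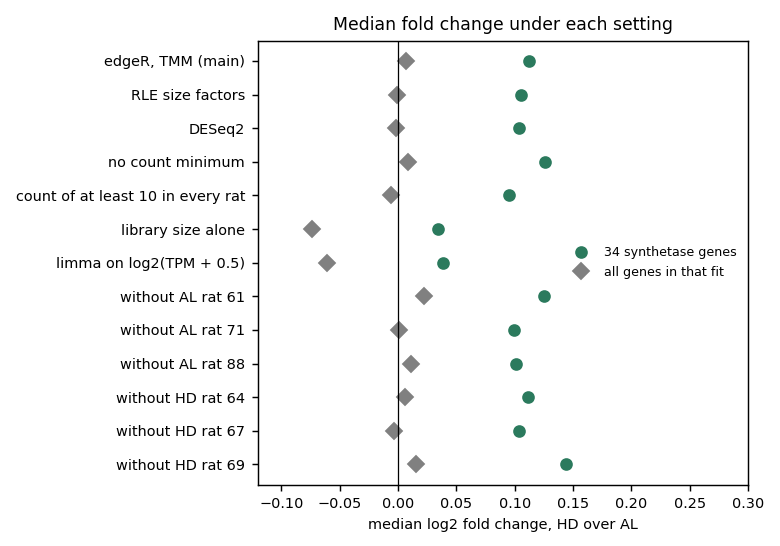
Median log2 fold change (HD over AL) of the 34 members (green) and of all genes in the fit (gray) under each normalization, filter and tool, and with each rat left out. The members' median minus that of all genes lay between 0.0902 and 0.128 in the 13 fits, while both medians moved down together with library size alone and on the TPM scale.

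Genes that work beside the synthetases were described from lists of their pathways. The scaffold genes had log2 fold changes of -0.0026 for Aimp1, -0.09 for Aimp2 and 0.04 for Eef1e1, with adjusted *P* values of 0.919 or more. Aimp1 was at 53.8, 41.6 and 54.2 CPM in the AL group and 47.4, 56.8 and 45.0 CPM in the HD group. Aimp2 was at 72.4, 47.0 and 56.5 CPM in the AL group and 47.4, 65.3 and 52.4 CPM in the HD group. Both ranges overlapped widely, as did that of Eef1e1, with 52.4, 33.3 and 39.8 CPM in the AL group and 48.1, 45.9 and 35.1 CPM in the HD group.

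The 8 tested cytosolic elongation factors had a median log2 fold change of 0.02. Of these, 0 had an unadjusted *P* value below 0.05, beside 10.6% of all tested genes in edgeR and 11.5% in DESeq2. The 11 tested factors of mitochondrial translation had a median of 0.08, and 1 had an unadjusted *P* value below 0.05, the elongation factor Tsfm with 12.7, 12.3 and 11.8 CPM in the AL group and 21.5, 15.1 and 15.2 CPM in the HD group. Of 10 tested genes of tRNA proofreading, processing and export, with a median of 0.04, 1 had an unadjusted *P* value below 0.05, the tRNA exporter Xpot with 86.7, 94.5 and 92.8 CPM in the AL group and 131, 121 and 98.3 CPM in the HD group. Tsfm is 9.09% of its tested list and Xpot 10.0%, beside 10.6% of all tested genes in either direction and 4.66% higher in HD. Tsfm and Xpot had adjusted *P* values of 0.426 and 0.423 from edgeR, and both were named after their values were seen.

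Atf4 itself was at 243, 174 and 196 CPM in the AL group and 148, 221 and 201 CPM in the HD group, which is -0.10 on the log2 scale (SE 0.19, edgeR adjusted *P* = 0.902). Asns, asparagine synthetase and a much-used Atf4 target, was at 6.27, 10.3 and 8.34 CPM in the AL group and 9.59, 10.2 and 8.57 CPM in the HD group, with overlapping groups. Of 28 tested genes of the Atf4 list (Fgf21 and Pycr1 had too few counts), 20 were above 0 with a median of 0.17, and 4 had an unadjusted *P* value below 0.05, all higher, Chac1, Sesn2, Cebpg and Gdf15, beside 4.66% of all tested genes. No gene of the list passed the adjusted threshold in edgeR, while DESeq2 called 2 as higher, beside 0.805% of all tested genes. They were Sesn2 and Gdf15, named after their values were seen. Sesn2, an inhibitor of mTORC1, was at 30.7, 30.8 and 30.2 CPM in the AL group and 57.9, 46.8 and 45.7 CPM in the HD group.

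The 13 synthetases that are usually named as Atf4 targets had a median log2 fold change of 0.09 and the 7 other cytosolic members a median of 0.11. Of the 13, Aars and Sars had an unadjusted *P* value below 0.05 in edgeR (15.4%, beside 10.6% of all tested genes). Of the 7 others, 0 did. The 7 members with the TGATGNAA letters in the promoters shown above had a median of 0.09, beside 0.11 in the 10 cytosolic members with a matched promoter that lacked them. Of these 7, Aars had the largest fold change (0.35) and Tars the smallest (0.01). Sars, next to Aars in fold change among the cytosolic members and also among the 13, had no match in its promoter. Whether Atf4 had a part in any of these fold changes was not tested.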

How the data were processed

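Kidney RNA of 6 rats was sequenced, 3 in the AL and 3 in the HD group, as the diet labels give them. The authors ran RSEM 1.1.15 with default parameters and UCSC gene models of build rn5, on single-end reads, and deposited 1 table per rat. The deposited expected counts per transcript are not normalized, and the deposited TPM values are scaled to length and depth by RSEM. Read filters are not given in the sources used here, and the library kit does not mark strand.

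Expected counts were summed per gene symbol and rounded to whole numbers, and genes with at least 30 counts in at least 1 rat were kept. Total counts were 12499945 to 30466461 per rat. Every pair of rats differed beyond sampling noise (chi-square per degree of freedom 24.1 to 81.2). edgeR 4.0.16 (R 4.3.3) with TMM and the quasi-likelihood test was the main test, with the diet as its only factor, although the methods of the study name DESeq2, which was run as an alternative (1.42.0). The SE was the fold change divided by the square root of F. Exact permutation tests used log2(CPM + 0.5), over the 10 divisions of the rats. Limma 3.58.1 was run on log2(TPM + 0.5). Both count tests were first tested on simulated counts. The labels do not say whether the rats shared a litter or a day, so *P* values measure only the spread between these rats.

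The members and lists were chosen with earlier results of these data known. Values in every rat are given for the 8 cytosolic and 6 mitochondrial members with the smallest *P* values, the most and least abundant of each set, Wars, Gars and Kars, which makes 18 members, and for the scaffold genes, Atf4 and Asns. Of the lists, Gatb, Mtif3, Mtrf1, Pet112, Pstk, Rtcb and Sepsecs were among those without an entry, and 1 item is not reported here. Sequences are from RefSeq (GRCr8), not from the rats.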

Additional observations from a re-analysis of the deposited data

How the results depend on the processing

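No paired analysis was possible because the labels give the rats no number that is shared between the groups. No member passed the adjusted threshold of 0.05 in any of the 13 fits. With library size alone, the median log2 fold change was 0.023 in the cytosolic and 0.054 in the mitochondrial members and 0 members had an unadjusted *P* value below 0.05. With limma on log2(TPM + 0.5) these values were 0.027, 0.06 and 0. The number of members with every HD rat above every AL rat was 7 with RLE size factors, 2 with library size alone and 1 in TPM, alternatives added after the data were seen. With 1 rat left out at a time, the number of members at an unadjusted *P* value below 0.05 ranged from 0 to 3. The share of all tested genes ranged from 5.26% to 15.6% in these fits. The difference of the medians ranged from -0.085 to 0.011. The fold change of Cars was -0.02 with library size alone and -0.02 in TPM, and that of Wars -0.04 and -0.02. Ears2 turned to 0.04 without rat 61 and to 0.00496 without rat 64, and ranged from -0.08 to 0.04 with 1 rat left out. The cause of these moves was not tested, except that both scalings lowered the median of all genes. Leaving Gars and Kars out of the cytosolic set changed the difference of the medians by less than the spread between rats.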
